A study of Mus musculus with 6 samples.

Results

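The 2 arrays of a mouse endothelial cell line labelled VE were set against the 2 arrays of a line labelled N, across 19936 genes. These are 4 of the 6 arrays of the series and were taken by the line named in their titles. The VE line is labelled as expressing VE-cadherin and the N line as expressing N-cadherin. The other 2 arrays, of a VE+N line labelled as expressing both cadherins, entered the test only to estimate the spread between arrays. All 3 lines were derived from embryonic stem cells. Per the labels' protocols the seeding density was 50000 cells per square centimetre in every line, culture lasted 72 h, serum was then withheld for 18 to 20 h with 1% bovine serum albumin in its place, and each whole-transcript array took 150 ng of RNA. Each cadherin state is 1 line, so a difference that comes with the cadherin cannot be told apart from any other difference between the lines. The titles call the 2 arrays of a line biological replicates, and the design text mentions 2 extractions of RNA for each line. Whether these were grown separately is not stated in the sources used here, so the p-values measure the spread between extracts of 1 line.

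VE-cadherin, the product of Cdh5, holds endothelial cells together at adherens junctions and is found almost only in endothelium. N-cadherin, the product of Cdh2, is an adhesion molecule of neurons, muscle and mesenchyme that endothelial cells also make. Both bind calcium outside the cell and catenins inside it, and through the catenins the actin skeleton. Confluent endothelial cells with VE-cadherin junctions are known for slowed growth.

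Levels are log2 values, on which 1 unit is a doubling of array signal. The median gene lay at 5.58 in the VE line and at 5.48 in the N line. Cdh2 read 5.80 and 5.93 on the VE arrays, against 7.66 and 7.67 on the N arrays. The VE arrays lay below both N arrays, and in limma's moderated test over all genes the difference was −1.80 ± 0.0992 (SE, n = 2 arrays a line), adjusted p = 1.87e-05. Cdh5 read 7.05 and 6.83 on the VE arrays, against 7.26 and 7.30 on the N arrays. It too was lower on both VE arrays, by −0.34, but did not pass the test (limma adjusted p = 0.0917). It passed, still lower in the VE line, with median centring (−0.44, adjusted p = 0.0330), with quantile normalization again (−0.39, adjusted p = 0.0412) and with a trended robust prior (−0.34, adjusted p = 0.0497). The Cdh2 signal therefore follows the labels and the Cdh5 signal does not. Where the Cdh5 probes lie is not known here, and each direction below rests on the labels.

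Both lines carried endothelial RNA. Of 16 endothelial markers 15 lay above the median gene in the VE line and 14 in the N line, and the marker at the middle of the list stood at the 97.5th percentile of all genes in the VE line and the 97.7th in the N line. Of the 16 markers 2 were called higher and 3 lower in the VE line. None of 8 pluripotency markers lay above the median gene in either line.

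In limma with Benjamini-Hochberg adjustment, 3079 genes passed an adjusted p of 0.05, which is 15.4% of those tested. Of these 1686 (8.46%) were higher and 1393 (6.99%) lower in the VE line. A change over 2-fold was also seen in 760 of them (3.81%), with 515 higher (2.58%) and 245 lower (1.23%). The middle 50% of all differences lay between −0.17 and 0.13, so most genes were near even, while 112 rises and 70 falls went past 4-fold. Without VE replicate 1, VE replicate 2, N replicate 1 or N replicate 2 the count of calls was 1741, 1688, 1741 or 1739, while the count over 2-fold stayed between 765 and 776. With median centring every difference was lower by 0.108, and the share of higher genes among the calls was 34.9% in place of 54.8% (58.7% in place of 67.8% over 2-fold). In 350 of the 760 genes the level in the lower line was under that of its median gene. How far such signals stood above background was not examined, so the sizes of those changes are approximate. A call over 2 arrays a line largely sets the arrays apart by itself, so a lack of overlap among called genes adds no support. Leaving out either VE+N array gave the same fit as the 4 VE and N arrays alone, so it is no separate check.

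**Figure D1:**
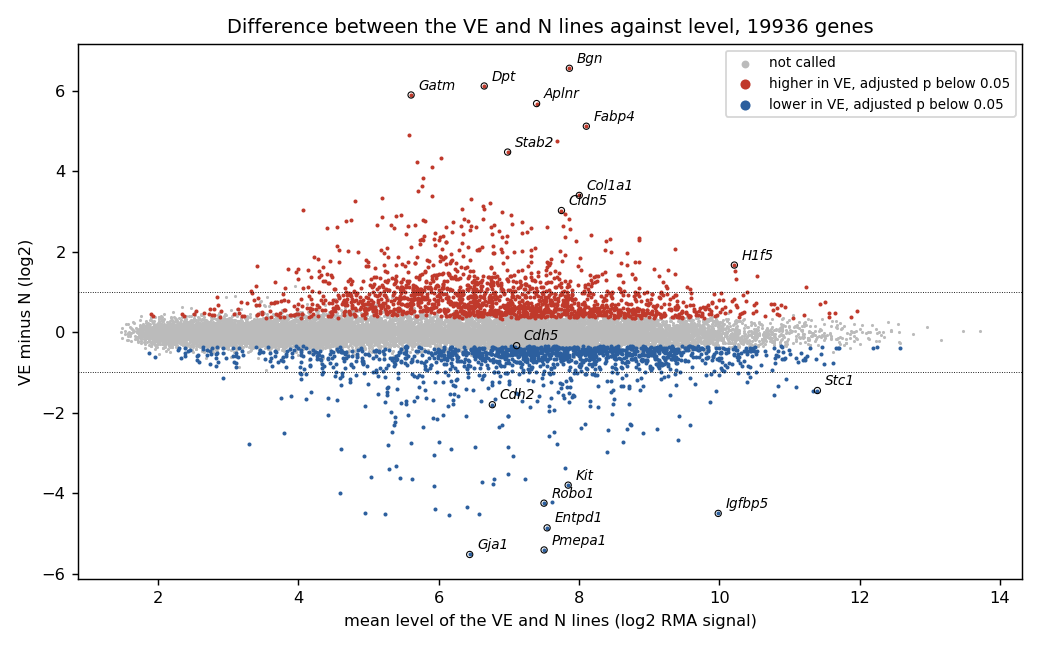
Each point is 1 of 19936 genes, with the mean level of the VE and N lines across (log2 signal) and the VE minus N difference upward (log2). Red points are higher and blue points lower in the VE line at an adjusted p below 0.05, grey points did not pass, dotted lines mark a change of 2-fold, and Cdh5 lies among the points near 0 while Bgn and Gja1 are at the edges.

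Genes were described in 55 lists of known function, with 1662 measured entries. Outside the 4 cell cycle lists, the medians of the other 51 lists lay between −0.23 and 0.29, against −0.02 over all genes. Of these 27 were above 0, and 19 of the 27 were below 0 with median centring. Those lists are described mainly by their counts of called members, which also moved with median centring. The share of higher genes among all calls was 34.9% with it, in place of 54.8%. Over all genes 8.46% were called higher and 6.99% lower, and a count near these shares is no result about a list.

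**Figure D2:**
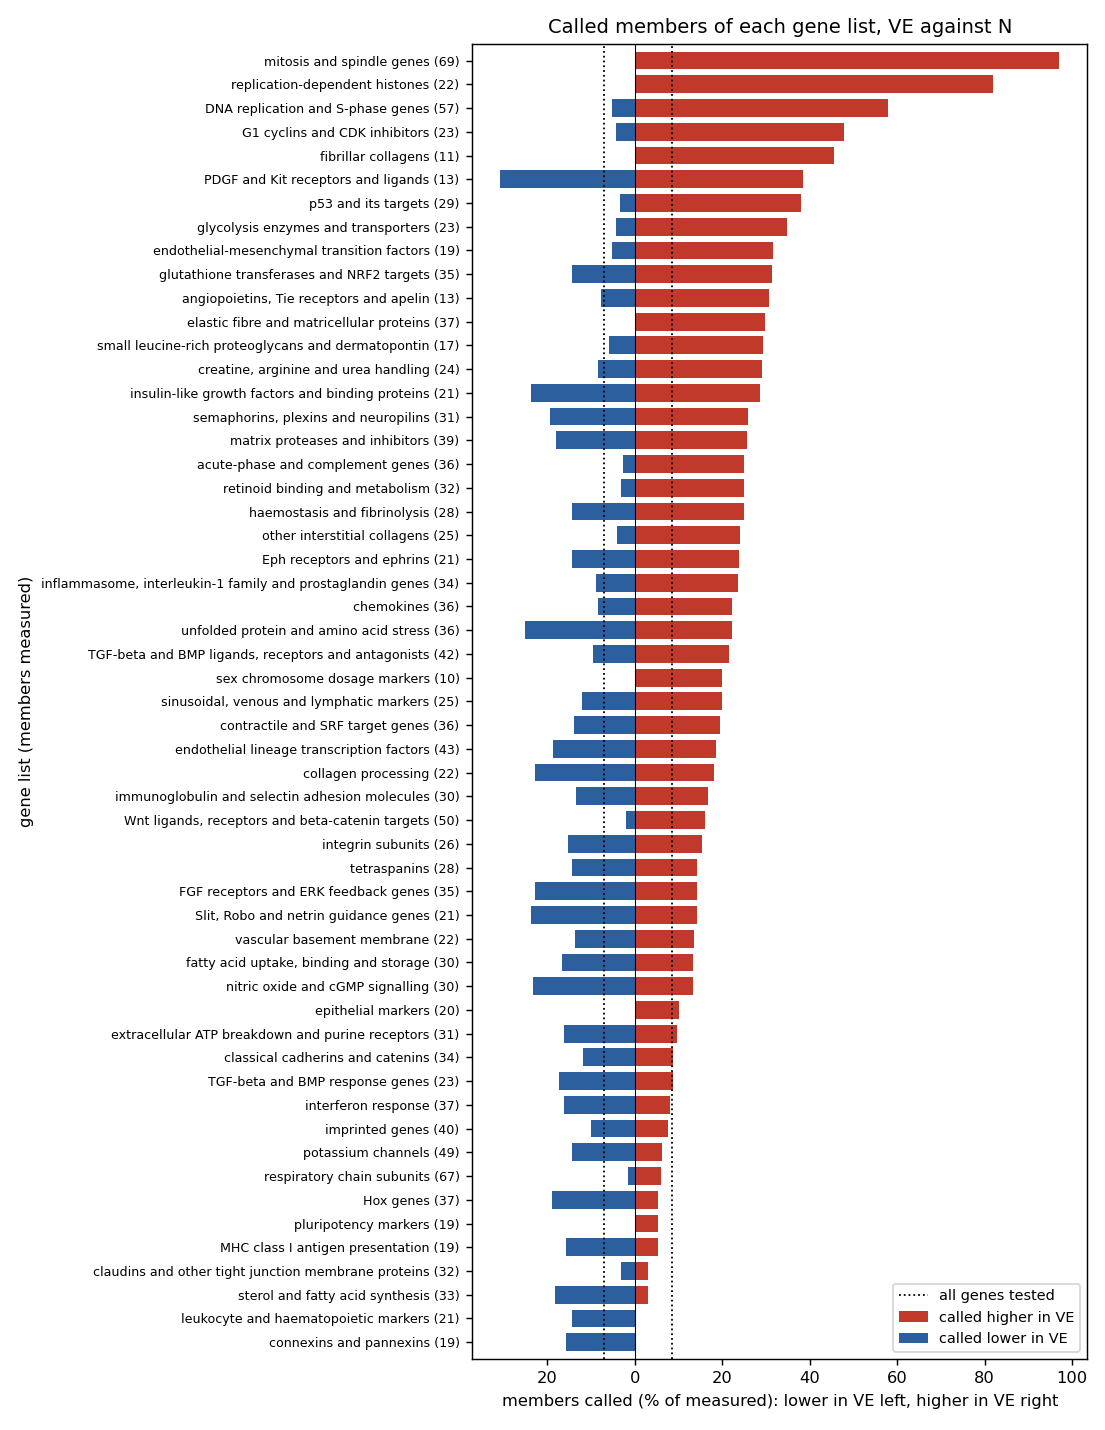
Bars give the share of each list's measured members (number in brackets, 1 list a line) that were called higher (red, to the right) or lower (blue, to the left) in the VE line, in percent. Dotted lines mark the same shares over all genes, 8.46% and 6.99%, and the mitosis list reaches furthest, with 67 of 69 members higher and 0 lower.

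Genes of cell division were higher in the VE line almost throughout. Of 69 measured genes of mitosis and the spindle 67 rose and 0 fell (67 and 1 with median centring), with a median difference of 1.03 (0.92 with median centring), and 39 of them rose over 2-fold. The 2 that did not pass were the condensin subunit Smc4 (0.46, limma adjusted p = 0.0599) and the spindle checkpoint gene Bub3 (−0.36, adjusted p = 0.0649). Without 1 of the VE or N arrays between 59 and 62 rose and 0 fell, and without either VE+N array 68 rose and 1 fell.

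Mki67, the gene of the proliferation antigen Ki-67, read 9.38 and 9.67 on the VE arrays, against 7.94 and 7.75 on the N arrays. Esco2, which acetylates cohesin so that sister chromatids stay joined, read 7.09 and 7.11 on the VE arrays, against 5.42 and 5.35 on the N arrays. Kif11, the motor that pushes spindle poles apart, read 7.81 and 7.98 on the VE arrays, against 6.28 and 6.46 on the N arrays. The differences were 1.68 ± 0.128 for Mki67, 1.72 ± 0.108 for Esco2 and 1.53 ± 0.114 for Kif11 (SE, limma adjusted p = 9.13e-05, 3.54e-05 and 8.5e-05). Foxm1, the transcription factor that drives many genes of this list, rose by 1.22 ± 0.119, and the kinase Aurkb by 1.28 ± 0.128. The condensin subunit Ncaph, the central spindle protein Prc1, the topoisomerase Top2a and the checkpoint kinase Ttk rose by 1.33 to 1.48.

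Replication-dependent histone genes, which are transcribed in S phase, moved the same way. Of the 22 copies measured 18 rose and 0 fell (17 and 0 with median centring), with a median of 1.04. The linker histone H1f1 read 9.37 and 9.13 on the VE arrays, against 6.51 and 6.39 on the N arrays, a difference of 2.80 ± 0.136 (limma adjusted p = 1.05e-05). The linker histone H1f5 read 11.11 and 10.98 on the VE arrays, against 9.43 and 9.33 on the N arrays, a difference of 1.67 ± 0.132. Core histone copies are near identical in sequence and probes can cross between them, so which copy moved is uncertain. The core copies H2ac4, H2bc3 and H4c6 rose by 2.40, 1.87 and 1.74.

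Genes of DNA replication were higher with a smaller median. Of 57 measured, 33 rose and 3 fell, with a median of 0.48 (28 and 3 with median centring), and 4 rose over 2-fold. The count of rises was 16 without VE replicate 1, 14 without VE replicate 2, 21 without N replicate 1 and 17 without N replicate 2, and that of falls was 3, 1, 2 and 1 in the same order. Those over 2-fold were Prim1, the primase that starts new strands (8.33 and 8.31 on the VE arrays, against 6.77 and 6.91 on the N arrays), the atypical E2F repressors E2f7 and E2f8, and the polymerase subunit Pole2. Their differences ran from 1.06 to 1.48. Among the parts of the replicative helicase, Cdc45 rose by 0.98 and Mcm7 by 0.92. The 3 that fell were the origin recognition subunit Orc5 (−0.75) and the polymerase subunits Pold3 (−0.60) and Pola2 (−0.59).

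Among 23 genes of G1 cyclins and inhibitors of cyclin-dependent kinases, 11 rose and 1 fell, and between 6 and 7 rose without each of the VE and N arrays. Cyclin D1 (Ccnd1), which takes cells out of G1, read 10.05 and 10.18 on the VE arrays, against 9.08 and 9.0 on the N arrays. Cyclin E2 (Ccne2), which opens S phase, read 6.54 and 6.36 on the VE arrays, against 5.10 and 4.93 on the N arrays. The rises were 1.08 ± 0.109 and 1.43 ± 0.12 (limma adjusted p = 0.000405 and 0.000153). The inhibitor Cdkn2c rose too, by 1.27, and the imprinted inhibitor Cdkn1c fell by 0.92. Of 29 genes on a list of p53 targets 11 rose and 1 fell (0 fell without any 1 of the VE and N arrays and 2 without either VE+N array). The gene of p53 itself (Trp53) and its targets Cdkn1a and Bax were not among the genes measured here. The rises were led by the death receptors Eda2r (2.12 ± 0.16) and Fas (1.94 ± 0.0984) and by the growth inhibitor Btg2 (1.03 ± 0.112).

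**Figure D3:**
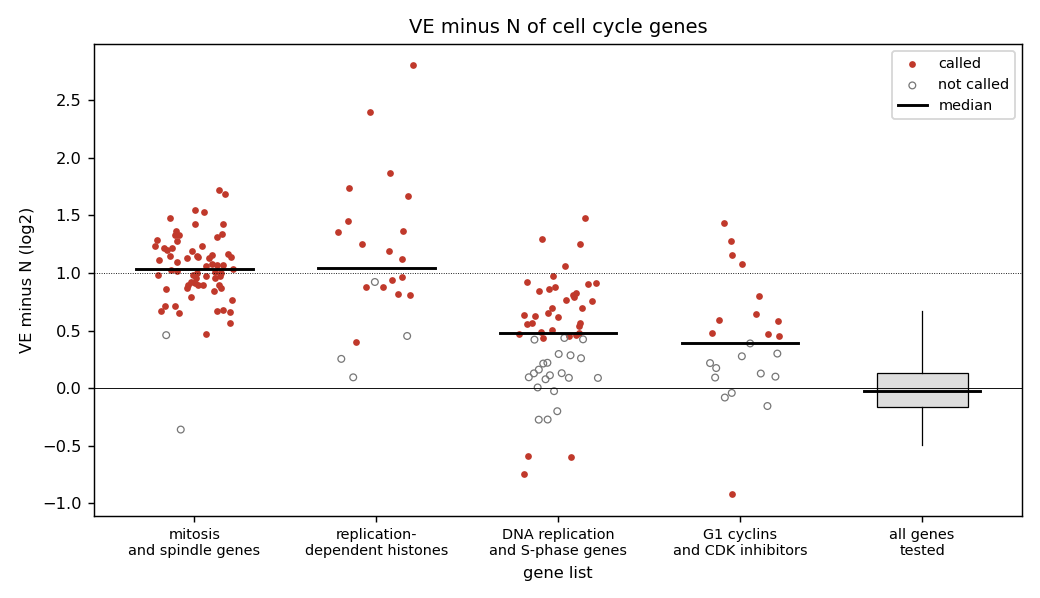
Points are genes of 4 cell cycle lists with their VE minus N difference upward (log2), filled where called and open where not, with a black line at each median. The box at the right spans the 25th to 75th and its whiskers the 5th to 95th percentile of all 19936 genes, and the medians of 1.03 and 1.04 for mitosis genes and histones lie above its upper whisker at 0.67.

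Promoters of mitotic genes are known for the cell cycle homology region, a short element (TTTGAA) bound by repressors in resting cells and by activators in dividing cells, together with CCAAT boxes bound by the factor NF-Y. Both were searched on both strands of RefSeq promoters of GRCm38.p6, in windows of 300 bases with 250 before the gene's start. Windows were at hand for 57 of 69 mitosis, 50 of 57 replication and 19 of 22 histone genes, and for 15614 of all 19936. A gene was counted if any of its windows matched. TTTGAA was found for 39 of 57 mitosis genes (68.4%) and 8 of 50 replication genes (16%). It was found for 10 of 19 histone genes (52.6%) and 2698 of all 15614 genes (17.3%). CCAAT was found for 70.2%, 62%, 84.2% and 41.7% of these. Both lay in the same window for 57.9% of mitosis genes, 10% of replication genes, 52.6% of histone genes and 6.89% of all genes. A match describes the letters and not a bound site. For 4 mitosis genes named above that hold both elements, the 150 bases before the start and the first 10 after it are printed. They show how the elements lie, with TTTGAA and CCAAT or their complements (TTCAAA and ATTGG) in capitals. As all 4 hold both, they do not show how often both occur among mitosis genes, for which the share was 57.9%. The shortest distance from a CCAAT to a TTTGAA match, first base to first base, was 25 bases in Mki67, 26 in Kif11, 32 in Prc1 and 35 in Top2a.
Mki67 (chr7:135716370-135716529, GRCm38.p6, minus strand): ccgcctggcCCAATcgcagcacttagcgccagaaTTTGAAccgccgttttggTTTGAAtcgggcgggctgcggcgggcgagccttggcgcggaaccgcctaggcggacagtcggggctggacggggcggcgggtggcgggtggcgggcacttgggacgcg
Kif11 (chr19:37376232-37376391, GRCm38.p6, plus strand): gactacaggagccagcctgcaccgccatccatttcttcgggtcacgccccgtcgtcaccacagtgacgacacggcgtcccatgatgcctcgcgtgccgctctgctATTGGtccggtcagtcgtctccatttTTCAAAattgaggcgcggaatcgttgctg
Prc1 (chr7:80294301-80294460, GRCm38.p6, plus strand): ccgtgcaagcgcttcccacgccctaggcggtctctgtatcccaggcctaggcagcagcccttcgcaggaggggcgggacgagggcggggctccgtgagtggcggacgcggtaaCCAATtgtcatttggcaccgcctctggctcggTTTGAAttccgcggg
Top2a (chr11:99024180-99024339, GRCm38.p6, minus strand): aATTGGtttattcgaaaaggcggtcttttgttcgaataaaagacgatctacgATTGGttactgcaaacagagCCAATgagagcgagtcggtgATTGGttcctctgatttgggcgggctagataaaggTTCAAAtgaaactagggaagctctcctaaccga

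Genes of the interstitial matrix held several of the largest rises. All 5 called fibrillar collagen chains of 11 rose and 0 fell, which held with median centring. Col1a1, a chain of type I collagen, read 9.68 and 9.72 on the VE arrays, against 6.33 and 6.28 on the N arrays, a difference of 3.40 ± 0.138 (limma adjusted p = 4.37e-06). Col5a2, a chain of the type V collagen that sets fibril width, read 7.47 and 7.35 on the VE arrays, against 4.77 and 4.83 on the N arrays. Col3a1, the type III chain, read 10.29 and 10.53 on the VE arrays, against 8.28 and 8.39 on the N arrays. Col5a2 and Col3a1 differed by 2.61 ± 0.111 and 2.08 ± 0.222. Among 25 other interstitial collagens 6 rose and 1 fell, among them Col6a3 at 2.77 ± 0.111 and Col6a1 at 1.44 ± 0.213, chains of the type VI beaded filaments, and Col12a1 at 1.26 ± 0.145. The fall, of Col10a1 (−0.66), was not called without VE replicate 1 or N replicate 2.

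Small proteoglycans with leucine-rich repeats coat collagen fibrils. Of 17 such genes, dermatopontin included, 5 rose and 1 fell. That one, Ecm2, fell by 0.51 and was not called without VE replicate 1, VE replicate 2 or N replicate 2. Biglycan (Bgn) read 11.06 and 11.22 on the VE arrays, against 4.49 and 4.67 on the N arrays, and dermatopontin (Dpt) 9.63 and 9.78 on the VE arrays, against 3.74 and 3.45 on the N arrays. Both genes stood above the median gene in the VE line and under it in the N line. Prelp, which ties basement membrane to collagen, read 8.41 and 8.26 on the VE arrays, against 5.22 and 5.02 on the N arrays, a difference of 3.21 ± 0.113 (limma adjusted p = 2.29e-06). Decorin (Dcn) read 8.14 and 8.22 on the VE arrays, against 4.99 and 5.23 on the N arrays, a difference of 3.07 ± 0.235.

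Of 37 elastic fibre and matricellular genes 11 rose and 0 fell (9 and 1 with median centring). They were led by Mmrn2, an endothelial matrix protein, at 2.44 ± 0.136, the matricellular protein Ccn3 at 2.05 ± 0.169, periostin (Postn) at 1.30 ± 0.135 and Thbs3 at 1.12 ± 0.106. Fibronectin (Fn1) rose by 0.68. Among genes outside the lists, the filament adaptor Matn2 read 9.19 and 9.33 on the VE arrays, against 6.29 and 6.37 on the N arrays, and the heparan sulfate proteoglycan Gpc4 7.54 and 7.61 on the VE arrays, against 4.09 and 3.80 on the N arrays. Their differences were 2.93 ± 0.117 and 3.63 ± 0.123. Basement membrane genes were split, with 3 of 22 higher, among them Col15a1 at 1.33 and Col18a1 at 1.00, and 3 lower, among them Col4a5 at −1.80. Only 2 rose without each VE and N array, and the lower count was 1 without VE replicate 2.

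Of 6 markers of fibroblasts 5 were called higher. Of the 6, Col1a1, Col1a2, Dcn and Lum are also members of the matrix lists above, so their values are the same measurements and add nothing independent. Of the other 2 markers Pdgfra alone was called. Over all 6, the summed level lay between 41.5 and 41.6 on the VE arrays, against 30.7 on the N arrays. In the VE line 4 of the 6 lay above the median gene and in the N line 3. Lum, a defining fibroblast proteoglycan, read 3.84 and 3.83 on the VE arrays, below the median gene, against 2.83 and 2.88 on the N arrays. Pdgfra, a PDGF receptor used to mark fibroblasts, rose by 2.52 ± 0.101. The part that other cells may have in the matrix genes was not tested.

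Matrix proteases went both ways, 10 of 39 higher and 7 lower (9 and 9 with median centring). Mmp3, stromelysin-1, read 7.94 and 6.97 on the VE arrays, against 3.88 and 4.04 on the N arrays, and the collagenase Mmp13 7.91 and 6.70 on the VE arrays, against 5.10 and 5.44 on the N arrays. The VE arrays differed from each other by about 1 unit in both genes and still lay above the N arrays. Adam12, a metalloprotease of fusing and growing cells, rose by 2.07 ± 0.118 with both VE arrays close together, at 7.98 and 7.86. The urokinase receptor Plaur (−1.30 ± 0.11), Fap (−1.64 ± 0.109) and the aggrecanase Adamts4 (−1.04 ± 0.121) fell. The secreted protease Htra1 read 8.40 and 8.71 on the VE arrays, against 5.80 and 5.82 on the N arrays.

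Receptors for the matrix changed as well. The integrin subunit Itga2, part of a collagen receptor, read 5.54 and 5.58 on the VE arrays, against 8.43 and 8.39 on the N arrays, a difference of −2.85 ± 0.0949 (limma adjusted p = 1.76e-06). Itga9 (−1.43 ± 0.0999) and the laminin receptor subunit Itga3 (−1.34 ± 0.1) fell too. No subunit of 26 rose over 2-fold, and 4 passed in each direction. Without VE replicate 2 the count of rises was 2. Tgm2, a transglutaminase that cross-links matrix proteins, read 6.08 and 6.15 on the VE arrays, against 9.53 and 9.46 on the N arrays, a difference of −3.38 ± 0.0975.

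**Figure D4:**
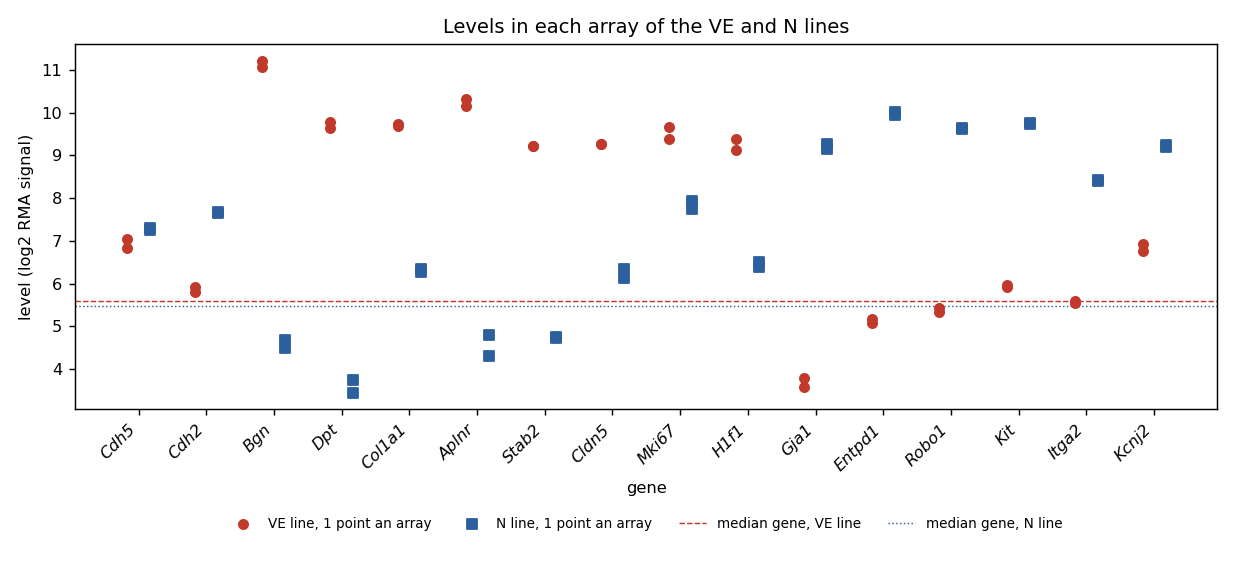
Points are the level of 16 genes on each array (log2 signal), with 2 red circles for the VE line left of 2 blue squares for the N line, and horizontal lines at the median gene of each line. Cdh5 reads 7.05 and 6.83 in the VE line, against 7.26 and 7.30 in the N line, and from Bgn to H1f1 the VE arrays are above, from Gja1 to Kcnj2 below, both N arrays.

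Junction genes other than the cadherins of the labels changed in few members, some of them strongly. Connexins form gap junction channels between cells, and of 19 connexins and pannexins 0 rose and 3 fell. Gja1, connexin 43, read 3.57 and 3.79 on the VE arrays, against 9.14 and 9.27 on the N arrays, a difference of −5.52 ± 0.149 (limma adjusted p = 5.42e-07). Gja5, connexin 40, fell by 1.08 ± 0.168. Gja4, connexin 37, read 4.95 and 4.81 on the VE arrays, against 5.29 and 5.36 on the N arrays, and its call (adjusted p = 0.0491) was lost without each of the VE and N arrays, which left 2 connexins lower. Among 32 claudins and other tight junction proteins, Cldn5, the main claudin of endothelium, read 9.26 on both VE arrays, against 6.14 and 6.34 on the N arrays, and Cldn15 fell by 1.12 ± 0.157. These were the only called members (1 higher and 4 lower with median centring, 2 higher without VE replicate 2, and 3 lower without either VE+N array). The share of this list called in each direction, 3.1%, was below the 8.46% higher and 6.99% lower over all genes. Of 34 classical cadherins and catenins 3 rose and 4 fell. The share that rose, 8.82%, is near the 8.46% over all genes, and the share that fell was 11.8%, against 6.99%. The desmosomal plakophilins Pkp1 and Pkp2 rose by 1.28 ± 0.124 and 1.27 ± 0.203, and Pkp4, a plakophilin of adherens junctions, by 0.88. Besides Cdh2, the falls were Cdh19 (−1.13, at 2.26 and 2.47 on the VE arrays, against 3.65 and 3.34 on the N arrays, all below the median gene), Cdh15 (−0.60) and beta-catenin, Ctnnb1 (−0.38), whose call was lost without each of the VE and N arrays.

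Growth factor receptors and their ligands changed in both directions. Kit, the receptor of stem cell factor, read 5.92 and 5.97 on the VE arrays, against 9.73 and 9.76 on the N arrays, a difference of −3.80 ± 0.0992 (limma adjusted p = 4.96e-07). Pdgfra, a PDGF receptor, read 8.06 and 8.18 on the VE arrays, against 5.61 and 5.58 on the N arrays. Pdgfc, a ligand of that receptor, read 8.40 and 8.43 on the VE arrays, against 6.73 and 6.66 on the N arrays, a difference of 1.72 ± 0.0957. Placental growth factor (Pgf), a ligand of Flt1, fell by 2.84 ± 0.179, and Flt1 itself, a VEGF receptor, rose by 0.93 ± 0.113. The VEGF ligand Vegfd rose by 1.37 ± 0.132.

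Of 21 genes of the insulin-like growth factor system 6 rose and 5 fell. The binding proteins Igfbp5 (−4.50 ± 0.12) and Igfbp3 (−2.08 ± 0.28) fell, as did the growth factor Igf2, at 7.92 and 7.74 on the VE arrays, against 9.60 and 9.61 on the N arrays. The glycoprotein hormone gene Stc1 read 10.75 and 10.59 on the VE arrays, against 12.10 and 12.14 on the N arrays. The adaptor Irs1, which carries the signal of the receptors, rose by 1.13 ± 0.102. Igfbp3 read 8.90 and 7.86 on the VE arrays, so its size is less certain than that of Igf2.

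In the TGF-beta and BMP system, Bmpr1a, a type I BMP receptor, read 7.14 and 7.0 on the VE arrays, against 4.84 and 5.18 on the N arrays, and Acvrl1, the endothelial type I receptor, 7.33 and 7.32 on the VE arrays, against 6.18 and 6.09 on the N arrays. The BMP antagonist Grem1 read 8.02 and 7.71 on the VE arrays, against 4.74 and 4.87 on the N arrays. All 3 rose, by 2.06 ± 0.145, 1.20 ± 0.0966 and 3.06 ± 0.131 (limma adjusted p = 6.42e-05, 0.000128 and 5.11e-06). The activin subunit Inhbb fell by 2.51 ± 0.119, and Pmepa1, a target and inhibitor of TGF-beta signalling, fell by 5.41 ± 0.153. Of 42 ligands, receptors and antagonists 9 rose and 4 fell (9 and 7 with median centring), and 2 fell without VE replicate 2, N replicate 1 or N replicate 2. Among 23 response genes 2 rose and 4 fell, and 0 rose without either VE array and 1 without either N array. The share of response genes that rose, 8.70%, is near the 8.46% over all genes, and 17.4% fell, against 6.99%. Of the response genes Msx1 (−1.42 ± 0.107), Hey1 (−1.24 ± 0.116) and Id3 (−0.99 ± 0.135) fell, and none rose over 2-fold.

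Negative feedback genes of the ERK pathway are read as a trace of its activity. The ERK phosphatase Dusp4 (−1.05 ± 0.13), the ETS factor Etv1 (−1.01 ± 0.126) and Spry4 (−0.99) fell, while the ligand Fgf1 rose by 1.21 ± 0.146. Of 35 genes of FGF receptors and this feedback 5 rose and 8 fell, and 4 fell without VE replicate 2 or N replicate 1. Among 50 Wnt genes 8 rose and 1 fell (6 and 1 with median centring), of which 4 rose and 0 fell over 2-fold. The rises over 2-fold were the decoy Sfrp2 (2.45 ± 0.228), the receptor Fzd6 (1.37 ± 0.106), the inhibitor Apcdd1 (1.33 ± 0.216) and the repressor Tcf7l1 (1.08 ± 0.104).

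Axon guidance genes, which also steer vessel growth, changed in both directions too. Robo1, a receptor for Slit proteins, read 5.42 and 5.33 on the VE arrays, against 9.64 and 9.61 on the N arrays, a difference of −4.25 ± 0.0959 (limma adjusted p = 3.51e-07). The endothelial receptor Robo4 fell by 0.69 ± 0.0987 and Srgap3, a partner of Robo proteins, rose by 1.65 ± 0.143. Of 31 semaphorins, plexins and neuropilins 8 rose and 6 fell, and 5 rose without VE replicate 2. Sema3d read 7.07 and 7.27 on the VE arrays, against 4.47 and 4.29 on the N arrays, and Sema5a 6.80 and 7.18 on the VE arrays, against 4.31 and 4.34 on the N arrays. Sema3d, Sema5a and Sema3c rose by 2.79 ± 0.131, 2.66 ± 0.157 and 2.18 ± 0.162, whereas Sema4c (−1.24), Sema3a (−1.02) and the receptor Plxnb1 (−1.23) fell. Of Eph receptors and ephrins, Epha7 rose by 2.13 ± 0.158, and Ephb1 (−2.09 ± 0.109) and the ligand Efnb1 (−1.61 ± 0.0994) fell.

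Vessel stability and identity genes included opposite changes of the 2 angiopoietins. Angpt1, the activating ligand of the Tie2 receptor, rose by 1.63 ± 0.154, and Angpt2, its antagonist in many settings, fell by 1.5 ± 0.124. Ptprb, the phosphatase of Tie2 and VE-cadherin, read 10.84 and 10.95 on the VE arrays, against 9.63 and 9.54 on the N arrays. Tie2 itself (Tek) read 10.89 and 10.90 on the VE arrays, against 11.06 and 11.08 on the N arrays, and did not pass (limma adjusted p = 0.397). The apelin receptor Aplnr read 10.31 and 10.16 on the VE arrays, against 4.80 and 4.31 on the N arrays. Both scavenger receptors of sinusoidal endothelium changed in opposite directions: Stab2 read 9.22 on both VE arrays, against 4.73 and 4.76 on the N arrays, and Stab1 read 8.61 and 8.69 on the VE arrays, against 9.76 and 9.75 on the N arrays.

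Among endothelial transcription factors 8 of 43 rose and 8 fell (5 and 11 with median centring). The ETS repressor Elk3 read 11.24 and 11.21 on the VE arrays, against 9.84 and 9.83 on the N arrays, and Gata6 rose by 1.44 ± 0.195. Hlx (−1.14 ± 0.106) and the Notch target Hey2 (−1.17 ± 0.104) fell over 2-fold. Without each of the VE and N arrays the rises numbered 4 to 6 and the falls 2 to 4. Of 19 factors linked to the transition from endothelium to mesenchyme 6 rose and 1 fell (5 and 3 with median centring). Sox9, Prrx2 and Runx1 rose over 2-fold, by 1.5 ± 0.144, 1.38 ± 0.132 and 1.21 ± 0.103.

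Nitric oxide, made by endothelial nitric oxide synthase, relaxes vessels through cGMP. The synthase gene Nos3 read 9.63 and 9.5 on the VE arrays, against 10.53 and 10.51 on the N arrays, a difference of −0.95 ± 0.101 (limma adjusted p = 0.00051). Nostrin, which draws the synthase into vesicles, read 4.08 and 4.38 on the VE arrays, against 8.60 and 8.57 on the N arrays. Cav1, the caveolar coat protein that holds the synthase inactive, rose by 0.91 ± 0.1, and the natriuretic peptide receptor Npr2, which makes cGMP, by 2.70 ± 0.095. The phosphodiesterase Pde3b, which breaks down cyclic nucleotides, fell by 3.62 ± 0.102, and Pde7b fell by 2.80 ± 0.14.

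Extracellular ATP is cut by Entpd1 and sensed by purine receptors. Entpd1 read 5.16 and 5.07 on the VE arrays, against 9.95 and 10.002 on the N arrays, a difference of −4.86 ± 0.115 (limma adjusted p = 3.51e-07). The receptor channel P2rx7 fell by 2.36 ± 0.133. The nucleotide receptors P2ry6 and P2ry2 rose by 3.30 ± 0.183 and 2.15 ± 0.145, with P2ry6 at 8.41 and 7.81 on the VE arrays, against 4.88 and 4.73 on the N arrays. Of 28 genes of clotting and fibrinolysis 7 rose and 4 fell (6 and 6 with median centring), and 2 fell without VE replicate 2 or N replicate 2. Over 2-fold, von Willebrand factor (Vwf), tissue factor (F3), Gas6 and Serpinf1 rose by 1.03 to 1.41, and the urokinase receptor Plaur fell by 1.30.

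Inflammatory genes held several rises over 2-fold. Casp1, the protease that matures interleukin-1, read 7.82 and 7.78 on the VE arrays, against 3.69 and 3.48 on the N arrays. Casp12 rose by 2.37 ± 0.203 and the alarmin Il33 by 2.63 ± 0.248, while Aim2, a sensor of DNA in the cytosol, fell by 1.52 ± 0.128. Genes of 3 steps of prostaglandin synthesis rose, the phospholipase Pla2g4a by 1.11 ± 0.138, the cyclooxygenase Ptgs2 by 2.60 ± 0.259 and the prostaglandin D synthase Hpgds by 3.34 ± 0.244. Hpgds read 7.0 and 6.73 on the VE arrays, against 3.32 and 3.74 on the N arrays. Over the 34 genes of these families 8 rose and 3 fell (7 and 3 with median centring), of which 6 rose and 1 fell over 2-fold. The shares over 2-fold among all genes were 2.58% higher and 1.23% lower.

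Of 36 chemokines and their receptors 8 rose and 3 fell (8 and 5 with median centring), of which 5 rose and 1 fell over 2-fold. The share that fell, 8.33%, is near the 6.99% over all genes, and the share that rose was 22.2%, against 8.46%. Cxcl12, which retains and attracts progenitor cells, read 8.38 and 8.14 on the VE arrays, against 6.34 and 6.38 on the N arrays, and its receptor Cxcr4 read 5.06 and 5.01 on the VE arrays, against 7.13 and 7.07 on the N arrays. The neutrophil chemokine Cxcl5 read 7.29 and 6.54 on the VE arrays, against 3.90 and 4.12 on the N arrays. Of 36 acute-phase and complement genes 9 rose and 1 fell, and 0 fell without VE replicate 2, N replicate 1 or N replicate 2. The acute-phase gene Saa3 read 9.0 and 7.38 on the VE arrays, against 4.06 and 3.68 on the N arrays, and Lcn2 read 9.84 and 8.36 on the VE arrays, against 6.46 and 6.44 on the N arrays. Saa3 and Lcn2 differed by over 1 unit between the VE arrays, and the lower VE array lay above both N arrays. The adhesion molecule Vcam1, a docking site for leukocytes, rose by 2.05 ± 0.158 and the inhibitory ligand Cd200 by 2.76 ± 0.107. The decoy receptor Il13ra2, which traps interleukin-13, read 7.58 and 7.62 on the VE arrays, against 4.25 and 4.18 on the N arrays, a difference of 3.39 ± 0.163.

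Of 37 interferon response genes measured 3 rose and 6 fell, with a median of −0.23. The share that rose, 8.11%, is near the 8.46% over all genes, and the share that fell was 16.2%, against 6.99% over all genes. Outside chromosomes 10 and 18 the counts were 1 and 6. The antiviral synthetases Oas1a (−1.75 ± 0.241) and Oasl1 (−0.96 ± 0.157) fell, and the transcription factor Irf1 and the GTPase Iigp1 rose by 1.15 ± 0.116 and 1.67 ± 0.231. The class I gene H2-T24 fell by 1.59 ± 0.121.

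Some genes best known from leukocytes were lower in the VE line. On a list of leukocyte and haematopoietic markers, 18 of 21 measured genes were not called, 0 rose and 3 fell. The share that fell was 14.3%, against 6.99% over all genes, and outside chromosomes 10 and 18 it was 1 of 16 genes. Lcp1, the actin bundler of leukocytes, read 5.51 and 5.50 on the VE arrays, against 9.76 and 9.69 on the N arrays, a difference of −4.22 ± 0.107 (limma adjusted p = 4.54e-07). The lysosomal gene Cd68 read 10.19 and 9.80 on the VE arrays, against 11.55 and 11.56 on the N arrays. The inhibitory receptors Lilr4b (−3.77 ± 0.158) and Lilrb4a (−3.52 ± 0.208) fell as well. These genes are near copies whose probes may not tell them apart. The chemokine receptor Cxcr3 fell by 3.09 ± 0.142 and the oxysterol receptor Gpr183 fell by 2.75 ± 0.103. Of 9 leukocyte markers Cd68 alone lay above the median gene in either line, and Cd68 was the only one of them called.

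Of 24 genes of creatine, arginine and urea handling 7 rose and 2 fell, and 1 fell without VE replicate 2, N replicate 1 or N replicate 2. Gatm, the first enzyme of creatine synthesis, read 8.64 and 8.47 on the VE arrays, against 2.46 and 2.86 on the N arrays, and the creatine kinase Ckb read 8.48 on both VE arrays, against 5.71 and 5.45 on the N arrays. The arginine transporter Slc7a2 and the urea transporter Slc14a1 rose by 1.97 ± 0.152 and 2.31 ± 0.145. Of 30 genes of fatty acid uptake, binding and storage 4 rose and 5 fell, while 3 fell without any 1 of the VE and N arrays and 2 rose without N replicate 2. The fatty acid binding proteins Fabp4 and Fabp5 rose by 5.12 ± 0.1 and 2.42 ± 0.149. Gpihbp1, the anchor of lipoprotein lipase (−2.09 ± 0.168), the lipase Lpl (−1.10 ± 0.105) and the uptake receptor Cd36 (−1.53 ± 0.186) fell. Gpihbp1 read 6.17 and 5.73 on the VE arrays, against 8.02 and 8.05 on the N arrays.

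The sterol and fatty acid synthesis factor Srebf1 read 6.60 and 6.58 on the VE arrays, against 8.65 and 8.45 on the N arrays, a difference of −1.95 ± 0.107 (limma adjusted p = 1.83e-05). Insig1, which restrains this factor and is also its target, fell by 1.07 ± 0.107 and the desaturase Scd1 fell by 1.06 ± 0.149. Of 33 genes of these syntheses 6 fell and 1 rose, the squalene epoxidase Sqle at 0.97, and 2 rose without either VE+N array. Of the synthesis genes 18.2% fell and 3.03% rose, against 6.99% and 8.46% over all genes. Among 32 retinoid genes 8 rose and 1 fell (8 and 4 with median centring). Without VE replicate 1 or N replicate 1 the rises numbered 5 and without N replicate 2 they numbered 4, and 0 fell without either VE array or either VE+N array. The receptor Rarb read 7.44 and 7.41 on the VE arrays, against 5.10 and 4.80 on the N arrays, and the retinal dehydrogenase Aldh1a1 rose by 1.22 ± 0.121. Aldh1a7, a related dehydrogenase, read 6.08 and 5.07 on the VE arrays, against 2.47 and 2.62 on the N arrays. Among 35 glutathione transferases and NRF2 targets 11 rose and 5 fell, and 3 fell without VE replicate 2. Over 2-fold, Gstm1, Gstm4, Gstm5, Gstm7, Mgst2 and Gpx8 rose by 1.05 to 1.99, and Gsta4 fell by 1.04. The Gstm genes are close copies and their values are not independent. Of 23 glycolysis genes 8 rose and 1 fell, while 5 rose without VE replicate 1 and 0 fell without VE replicate 2, N replicate 1 or N replicate 2. The lactate exporter Slc16a3 rose by 1.90 ± 0.156, and Pdk1, which inhibits pyruvate dehydrogenase, by 0.93 ± 0.101. None of 67 subunits of the respiratory chain changed over 2-fold.

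Among the largest changes outside these lists, Vgll3, a cofactor of TEAD transcription factors, read 8.56 and 7.36 on the VE arrays, against 3.84 and 3.87 on the N arrays. Mme, the peptidase neprilysin, read 7.43 and 7.95 on the VE arrays, against 3.82 and 3.91 on the N arrays. Mras, a small GTPase that activates RAF, read 8.31 and 8.08 on the VE arrays, against 5.08 and 5.05 on the N arrays. All 3 were higher on both VE arrays, by 4.11 ± 0.341, 3.82 ± 0.163 and 3.13 ± 0.125 (limma adjusted p = 0.000145, 5.11e-06 and 4.21e-06). Ndrg2, Gfra2, Nptx1, Slc25a13, Ahrr, Mdga2, Rp1 and Penk rose by 2.75 to 3.27.

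On the lower side, Htr2b, a serotonin receptor, read 3.97 and 3.61 on the VE arrays, against 7.56 and 7.32 on the N arrays. The transcription factor Sox11 read 2.94 and 3.54 on the VE arrays, against 6.72 and 6.95 on the N arrays. The glutamine transporter Slc38a1 read 3.63 and 3.56 on the VE arrays, against 6.87 and 7.11 on the N arrays. These genes lay below the median gene in the VE line and above it in the N line, with differences of −3.65 ± 0.16, −3.60 ± 0.211 and −3.39 ± 0.201. The RNA-binding protein Khdrbs3, the serpin Serpinb11, the secreted protein Adamtsl1, the peptidase Cpq, the peptide hormone Nmb and the redox protein Pir fell, with differences from −4.01 to −3.31. The neurofilament gene Nefl fell by 2.97 ± 0.157 and the serpin Serpinb1a, an inhibitor of neutrophil proteases, read 8.12 and 8.03 on the VE arrays, against 10.70 and 10.81 on the N arrays.

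Genes were also set in their order along the chromosomes (RefSeq order of GRCm38.p6), in 322 blocks of neighbours brighter than the median gene. Of the blocks 303 held 30 genes, and 19 at chromosome ends, which took in the remainder, held up to 58. On chromosome 10, the median differences of the first 5 blocks, 150 genes from Plekhg1 to Ddx21, ran from −0.64 to −0.46, with 96 genes lower and 7 higher in the VE line. The following 11 blocks, 344 genes from Ddx50 to Olfr767, ran from 0.20 to 0.48, with 147 genes higher and 7 lower. On chromosome 18, 2 blocks from Atg12 to Ptpn2 had medians of −0.43 and −0.51, with 36 of 60 genes lower and 6 higher. In the other 304 blocks the medians stayed between −0.32 and 0.31, and some on chromosomes 3, 4, 5, 6 and 19 went past 0.2 or −0.2. On chromosome 5 every block had a median below 0, from −0.32 to −0.08. Of the genes tested on chromosome 5 12.6% were called lower and 6.93% higher. Of all genes tested on chromosome 10 31.1% were called, and on chromosome 18 25.1%. The signs of the stretches on chromosomes 10 and 18 held with median centring and without each of the VE and N arrays. In the VE+N line minus the N line, block medians ran from 0.35 to 0.82 in the later stretch of chromosome 10. They were −0.67 to −0.42 in the stretch of chromosome 18 and −0.18 to −0.05 in the first stretch of chromosome 10. Which line departs from the others was not tested. The stretches were picked after their values were seen and were not tested, and a block's edge is not a mapped break.

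Several genes named above lie in these stretches. Gja1, Lilr4b, Lilrb4a, Pde7b and Hey2 lie in the first stretch of chromosome 10 and fell, and Stab2, Dcn, Prim1, Col6a1, Elk3, Ptprb and E2f7 lie in the later stretch and rose. Over the named genes changed over 2-fold, 6 of 7 in the first stretch were lower and 11 of 11 in the later one higher. Stretches and named genes were both picked from these same differences, so this tally is no separate evidence for the stretches. The falls among them in the first stretch ran from −5.52 (Gja1) to −1.17 (Hey2), against block medians of −0.64 to −0.46. The rises in the later stretch ran from 1.11 (Mmp19) to 4.76 (Rassf9), against block medians of 0.20 to 0.48. The part of position on the chromosome in these differences was not tested. With the genes of chromosomes 10 and 18 left out, 64 mitosis genes were higher and 0 lower, 31 replication genes higher and 3 lower, 18 histones higher and 0 lower, and 3 small proteoglycans higher and 1 lower.

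**Figure D5:**
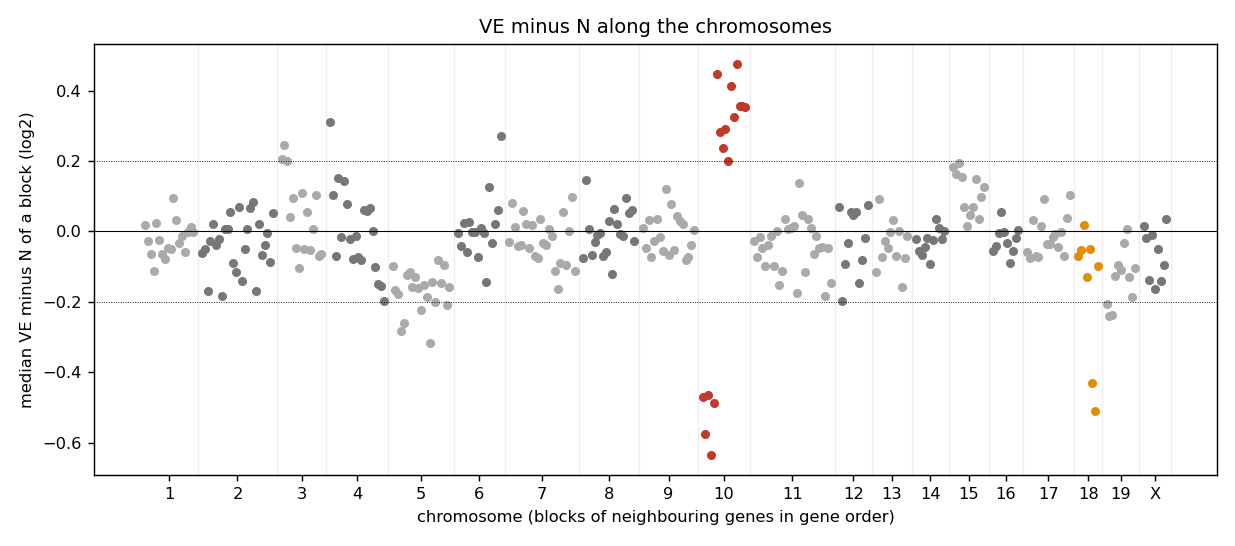
Each point is a block of neighbouring genes brighter than the median gene (30 genes in 303 blocks, up to 58 in 19 at chromosome ends), in gene order along the chromosomes, with the block's median VE minus N difference upward (log2) and dotted lines at 0.2 and −0.2. Chromosome 10 (red) holds 5 blocks from −0.64 to −0.46 followed by 11 from 0.20 to 0.48, and chromosome 18 (orange) holds 2 blocks at −0.43 and −0.51.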

How the data were processed

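Each of 3 lines had 2 arrays (Affymetrix Mouse Gene 1.0 ST) hybridised with its RNA. Per the submitters' processing notes, the authors used Partek 6.3 and RMA, a method of background correction, quantile normalization and summary of probes. The deposited values were taken as log2 because of their range. Genome build and annotation release are not given in the sources used here. The array medians over 35556 probe sets were 4.85 to 4.91. The number of arrays, not a read depth, limits the precision.

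A single gene symbol was given for 21789 probe sets, several for 1621 and none for 12146. Older symbols were replaced through Entrez identifiers (21698) or accessions (3) or kept (88). For 1001 genes with several probe sets the one with the highest mean over 6 arrays was used, and no filter on signal was applied. The test of each difference used limma 3.58.1 under R 4.3.3 (tables and figures in Python 3.11.15 with pandas 2.3.3), by fitting the mean of each line to all 6 arrays and moderating the variances (residual degrees of freedom 3, prior 4.89), and adjusted by Benjamini-Hochberg over 19936 genes. A gene was called at an adjusted p below 0.05. Errors printed with ± are SE. The fit was tested on simulated data.

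The comparison, its gene lists and the genes named were chosen with earlier results of these data known. Named by rule are both cadherins of the labels, the top 40 called genes by change in each direction, up to 4 called members of a list or all those over 2-fold, the brightest uncalled members, cell type markers and genes that went between the top 25% and the bottom 25% of levels. Other genes in the text were chosen after their values were seen. Lists are described by counts and medians, with no test of the list. The replicate numbers were checked for pairing: deviations from the line means correlated at −0.0050 between the VE and N arrays, 0.07 between VE and VE+N and 0.12 between N and VE+N, so the numbers were not taken to pair the arrays.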

Additional observations from a re-analysis of the deposited data

How the results depend on the processing

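With each array left out in turn, the count of called genes lay between 1688 and 3356, the low values coming from the 4 settings that leave 1 array in the VE or the N line and so rest its spread on the other lines. The methods' analysis of variance called 1276 genes after Benjamini-Hochberg, and the methods' rule of an unadjusted p with a change over 2-fold called 751. All other counts of called genes, and of called genes over 2-fold under every alternative run, stayed within 1.5 times those reported. With the replicate number as a block, the counts were 3056 and 760, and the block changed the call of neither cadherin gene. Outside chromosomes 10 and 18, an alternative chosen after seeing the data, 2669 genes were called. Cdh2 kept its direction and call throughout. Cdh5 was −0.34 and passed the test with a trended robust prior (−0.34), median centring (−0.44) and quantile normalization again (−0.39). Of 319 called genes named by the rule, 214 kept direction and call under all 14 alternatives run for each gene, 105 lost the call under at least 1 and 0 reversed. Of the 277 over 2-fold, 8 lost the call without an array. A further 14 called genes were named after their values were seen. Of these 9 lost the call under at least 1 alternative and 0 reversed. Leaving out either VE+N array gave the same fit as the 4 VE and N arrays alone. These alternatives are therefore 1 check and not separate ones. Low signal was not examined and limits the sizes of 350 changes.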

Other observations

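Potassium channels set the resting voltage of endothelial cells. Of 49 channel genes 7 fell and 3 rose (8 and 3 with median centring), of which 5 fell and 1 rose over 2-fold. The share that rose, 6.12%, was below the 8.46% over all genes, and the share that fell was 14.3%, against 6.99%. Kcnq1 read 7.35 and 7.17 on the VE arrays, against 9.97 and 10.01 on the N arrays, and the inward rectifier Kcnj2 read 6.92 and 6.75 on the VE arrays, against 9.20 and 9.24 on the N arrays. Their differences were −2.73 ± 0.104 and −2.38 ± 0.125 (SE, limma adjusted p = 3.48e-06 and 1.53e-05). The channel subunits Kcne3 (−2.17), Abcc9 (−1.99) and Kcnab2 (−1.12) fell, and Kcna5, below the median gene in both lines, rose by 1.54.

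The tetraspanins, membrane organisers, included Tspan13 (4.22 and 4.41 on the VE arrays, against 8.80 and 8.89 on the N arrays), Tspan15 at −1.83 ± 0.0958 and Cd82 at 1.72 ± 0.106. Among imprinted genes, Mest read 3.80 and 3.72 on the VE arrays, against 8.07 and 8.22 on the N arrays, while the growth suppressor Plagl1 rose by 1.73 ± 0.113. Plagl1 lies in the stretch of chromosome 10 whose genes were mostly lower. Among Hox genes, which record position along the body, Hoxd10 read 4.36 and 4.71 on the VE arrays, against 6.50 and 6.70 on the N arrays. The Y-linked genes Uty and Eif2s3y were higher by 1.05 ± 0.151 and 0.86 ± 0.134. Uty read 8.35 and 8.49 on the VE arrays, against 7.28 and 7.45 on the N arrays, so both lines gave signal above the median gene for it.

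Few genes moved across the whole range of levels. Dpt, Gatm, Cxcl15 and Casp1 lay in the top 25% of genes in the VE line and in the bottom 25% in the N line, and Gja1 and Mest the other way round. Cxcl15 read 8.65 and 7.40 on the VE arrays, against 3.03 and 3.21 on the N arrays.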
